A study of Mus musculus with 5 samples.

Results

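The type I interferon-stimulated genes of the mouse colon were followed after stimulation of the IL-11 receptor. The genes were 37 well-known targets of type I interferon, chosen by name with earlier results of these data known. Each was represented by its brightest probe. Of these, 34 were matched to a probe on the array and all 34 were tested, among 32917 features in all, of which 17945 had a gene symbol. The remaining 3, Oas1b, Mx1 and Mx2, had no probe that could be named here, and no value is given for them. All 34 were well above background on all 5 arrays.

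RNA of whole colon from C57BL/B6 mice was hybridised to single-colour Agilent arrays, with 1 mouse per array. The Control group held 2 arrays. Its mice are described in the study as untreated. The NT-3N group held 3 arrays of mice, given as 8 weeks old, whose colon was taken 3 hr after intravenous NT-3N, which activates the receptor of IL-11. The age of the control mice was not given. No mouse received a vehicle, so the injection and the agonist cannot be told apart. The arrays are called Control 1 and 2 and NT-3N 1, 2 and 3 after their labels, and these numbers have no order. Levels are log2 signals after quantile normalization, so that a difference of 1 is a 2-fold change, and levels are compared between arrays and not between genes. All 5 arrays shared 1 slide and 1 scan time, and between 70.6% and 72.9% of the probes on an array were well above background. The tissue was bulk colon: all 12 markers tested for colonic epithelium exceeded background on the 5 arrays, and in such samples fewer cells of a type and less RNA per cell cannot be told apart.

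Type I interferons bind the receptor pair Ifnar1 and Ifnar2 and act through the kinases Jak1 and Tyk2. Irf9 is the DNA-binding part of a complex, ISGF3, which binds the interferon-stimulated response element of target promoters. The targets include sensors of viral RNA, enzymes that degrade or block viral RNA, the ubiquitin-like protein Isg15 and the transcription factor Irf7, which amplifies the response. Many have tonic expression in unchallenged intestine. IL-11 signals through a different receptor, Il11ra with Il6st (gp130), and mainly through Stat3.

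The promoters of 4 members with ranges over the NT-3N mice of more than 4-fold are shown as examples that carry the letters of the response element. Ifit3 and Ddx60, with ranges of 4.79-fold and 5.09-fold, carry them too and are not shown. RefSeq promoter windows (build GRCm38.p6, 250 bases before to 50 after the transcript start) were found for 26 of the 34 members, some with more than 1 window, giving 29 windows. The motif GAAANNGAAA, searched on both strands with overlapping matches allowed, was in 13 of the 29 windows (44.8%) and in 1131 of all 32851 windows (3.44%). The shorter motif TTCNNNGAA, which reads the same on both strands and is the core of STAT binding sites, was in 6 of the 29 windows (20.7%) and in 8.3% of all windows. Below are the 150 bases before the transcript start, 5′ to 3′ on the strand of the gene, with matches to GAAANNGAAA or its reverse complement in capitals.
Ifit1, chr19:34640739-34640888, plus strand: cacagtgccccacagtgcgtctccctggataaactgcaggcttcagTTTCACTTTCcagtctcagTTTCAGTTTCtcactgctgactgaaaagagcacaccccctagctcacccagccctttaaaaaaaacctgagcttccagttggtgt
Isg15, chr4:156200819-156200968, minus strand: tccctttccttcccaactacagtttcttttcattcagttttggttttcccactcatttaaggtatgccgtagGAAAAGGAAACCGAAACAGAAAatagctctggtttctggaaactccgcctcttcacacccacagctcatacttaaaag
Rsad2, chr12:26456453-26456602, minus strand: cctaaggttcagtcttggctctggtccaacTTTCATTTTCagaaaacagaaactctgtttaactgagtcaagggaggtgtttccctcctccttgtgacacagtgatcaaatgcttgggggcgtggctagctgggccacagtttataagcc
Oas3, chr5:120777660-120777809, minus strand: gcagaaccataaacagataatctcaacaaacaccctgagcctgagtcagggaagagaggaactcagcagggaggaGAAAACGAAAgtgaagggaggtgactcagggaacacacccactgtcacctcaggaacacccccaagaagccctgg
The Ifit1 stretch held 2 separate matches, the Isg15 stretch 3 overlapping ones, and the Rsad2 and Oas3 stretches 1 each. Among the 26 members with a window, the 12 with a match had ranges over the NT-3N arrays of 0.60 to 2.59 on the log2 scale (median 1.72), and the 14 without had ranges of 0.08 to 2.78 (median 1.12). These ranges overlapped, and Ifi44, Oasl2, Irf7 and Ifit2 had no match in the window searched. A match is a description of letters and was not tested for binding.

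No member passed the test between NT-3N and Control. By limma with Benjamini-Hochberg adjustment over all features, 0 of the 34 had an adjusted p under 0.05, with adjusted p from 0.27 to 0.92, beside 47 of all features (0.143%). Nonetheless 32 of the 34 were lower in NT-3N on average, beside 53.6% of all features. Lower by 2-fold or more were 13 members, beside 0.905% of all features, and 9 were lower at an unadjusted p under 0.05, beside 4.67%. The median log2 difference over the members was -0.77, against -0.02 over all features tested. It was -1.19 without NT-3N 1 and -0.42 without NT-3N 2, and the count of members lower at an unadjusted p under 0.05 was 27 without NT-3N 1, beside 2669 of all 32917 features, and 2 without Control 2, beside 899. A local-pooled-error test, the kind named in the methods of the study, called 17 members at an adjusted p under 0.05, beside 343 of 32910 features.

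**Figure D1:**
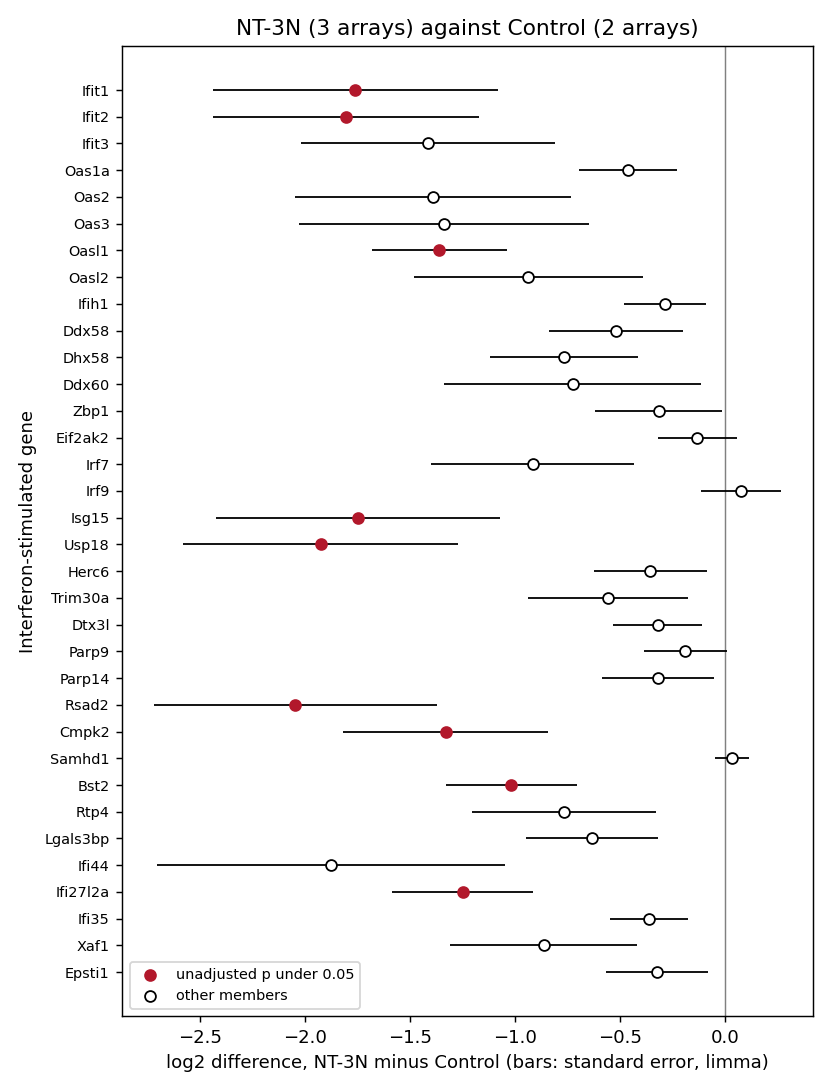
log2 difference between NT-3N (3 arrays) and Control (2 arrays) for the 34 members, ordered by role, with standard errors from limma as bars. Filled points mark the 9 members with an unadjusted p under 0.05; none had an adjusted p under 0.05, and 32 of the 34 points lie below 0.

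The mice of each group differed in these genes, and the order of the mice was nearly the same from gene to gene. NT-3N 2 was the lowest of the 5 arrays for 33 of the 34 members, beside 19.2% of all features, with Samhd1 as the exception. Within the NT-3N group the order was NT-3N 2, then NT-3N 3, then NT-3N 1 for 33 members, beside 18.3% of all features. Control 1 was below Control 2 for all 34 members, beside 47.8% of all features, and Control 2 was the highest array for 30 members, beside 20.2%. The members were measured on the same arrays, so these counts are not independent observations. The members were also chosen with earlier results of these data known, so the shares beside them are description and not a test. The median over the members, as a linear fold of the mean of the controls, was 0.85 in Control 1, 1.17 in Control 2, 0.98 in NT-3N 1, 0.36 in NT-3N 2 and 0.60 in NT-3N 3. NT-3N 1 thus lay at the level of the controls, whereas NT-3N 2 and NT-3N 3 lay below both. Medians over all features stayed within 0.98 and 1.00 of the control mean on every array.

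**Figure D2:**
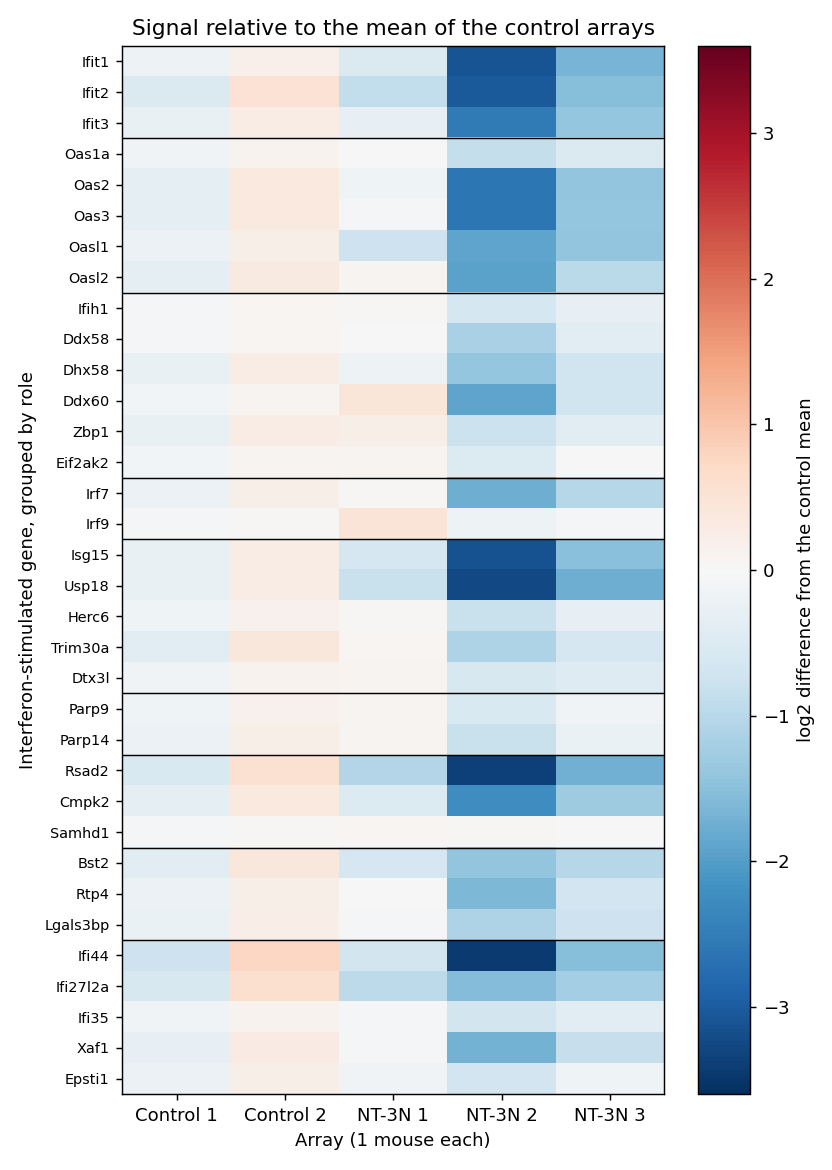
log2 signal of each of the 34 members (rows, grouped by role with lines between groups) on the 5 arrays (columns), as the difference from the mean of the 2 control arrays; blue is lower and red is higher. NT-3N 2 is the lowest array in 33 rows, and NT-3N 1 lies between the 2 control arrays in 20.

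Relative to the controls, NT-3N 1 lay between them for 20 members, above both for 4 and below both for 10. NT-3N 2 was below both controls for 33 members and NT-3N 3 for 29. For these positions of single arrays, shares over all features were not counted. All 3 NT-3N arrays were below both controls for 10 members, beside 14.8% of all features: Ifit1, Ifit2, Ifit3, Oasl1, Isg15, Usp18, Rsad2, Cmpk2, Bst2 and Ifi27l2a. The other 24 overlapped between the groups.

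The IFIT proteins bind viral RNA that lacks the methylation marks of host transcripts. The log2 signal of Ifit1 was 12.01 and 12.41 in the controls and 11.69, 9.11 and 10.55 in NT-3N 1 to 3. That of Ifit2 was 9.21 and 10.24 in the controls and 8.85, 6.71 and 8.21 in NT-3N. All 3 NT-3N arrays were below both controls for either gene, yet NT-3N 1 was nearer to the controls than to NT-3N 2. The log2 difference was -1.76 ± 0.68 (SE; adjusted p = 0.49, limma) for Ifit1 and -1.80 ± 0.63 (adjusted p = 0.46, limma) for Ifit2. For Ifit3, whose human counterpart binds and stabilises IFIT1, it was -1.41 ± 0.60 (adjusted p = 0.53, limma).

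The oligoadenylate synthetases make a second messenger that activates RNase L, which cuts RNA. Oas2 had log2 signals of 12.89 and 13.62 in the controls and 13.10, 10.66 and 11.83 in NT-3N 1 to 3. Oas1a stood at 15.22 and 15.47 in the controls and 15.33, 14.49 and 14.83 in NT-3N. For both, NT-3N 1 lay between the controls, so the groups overlapped, and the range over the NT-3N mice was 5.42-fold for Oas2 and 1.79-fold for Oas1a. Oas3 had a range of 5.93-fold over the NT-3N mice and Oasl2, an Oas-like protein with a ubiquitin-like tail, one of 4.05-fold. Oasl1, which represses translation of Irf7, had the smallest unadjusted p of all members (0.0048, limma). Its log2 signals were 13.90 and 14.31 in the controls and 13.35, 12.19 and 12.68 in NT-3N. All NT-3N arrays were below the controls for Oasl1, by -1.36 ± 0.32 on average, with an adjusted p of 0.27 by limma.

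Ifih1 (MDA5) and Ddx58 (RIG-I) recognise double-stranded and 5′-triphosphate RNA, Dhx58 modulates both, Zbp1 senses Z-form nucleic acids and Eif2ak2 (PKR) halts translation. Log2 signals of Ifih1 were 11.38 and 11.52 in the controls and 11.50, 10.83 and 11.17 in NT-3N 1 to 3. Those of Dhx58 were 9.85 and 10.39 in the controls and 9.93, 8.72 and 9.42 in NT-3N. Both overlapped between the groups through NT-3N 1, and the 6 sensors had log2 differences of -0.77 to -0.13 with adjusted p of at least 0.56 by limma. Ddx60, a helicase linked to RIG-I signalling, differed most among the NT-3N mice of this class, with 9.51 and 9.69 in the controls and 10.05, 7.70 and 8.87 in NT-3N. NT-3N 1 was above both controls for Ddx60, and the range over the NT-3N mice was 5.09-fold.

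Irf7, the amplifier of the response, had log2 signals of 15.93 and 16.36 in the controls and 16.18, 14.37 and 15.13 in NT-3N 1 to 3, a range of 3.50-fold over the NT-3N mice. Irf9, of ISGF3, had 12.14 and 12.25 in the controls and 12.65, 12.01 and 12.14 in NT-3N. Irf9 was thus highest in NT-3N 1, and its other mice lay close together. The log2 differences were -0.92 ± 0.48 for Irf7 (adjusted p = 0.61, limma) and 0.07 ± 0.19 for Irf9 (adjusted p = 0.92, limma). The sign for Irf9 turned without NT-3N 1, to -0.12.

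Isg15 is conjugated to target proteins, Herc6 is its main mouse ligase and Usp18 removes it and also blocks Ifnar2. Isg15 stood at log2 signals of 14.77 and 15.31 in the controls and 14.44, 11.90 and 13.53 in NT-3N 1 to 3. Usp18 stood at 11.04 and 11.57 in the controls and 10.52, 8.06 and 9.56 in NT-3N. Both had every NT-3N array below both controls, with NT-3N 2 more than 2 log2 units below the lower control. The log2 differences were -1.75 ± 0.68 (adjusted p = 0.49, limma) for Isg15 and -1.93 ± 0.65 (adjusted p = 0.44, limma) for Usp18. Herc6, at -0.36, and the ubiquitin ligases Trim30a, at -0.56, and Dtx3l, at -0.32, had smaller log2 differences. Parp9, the partner of Dtx3l, and Parp14, an ADP-ribosyltransferase, differed by -0.19 and -0.32. Log2 signals of Parp14 were 12.52 and 12.92 in the controls and 12.82, 11.91 and 12.48 in NT-3N, which overlapped.

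Rsad2 (viperin) makes a chain-terminating nucleotide from CTP, which the neighbouring gene Cmpk2 helps to supply. Rsad2 had log2 signals of 10.67 and 11.74 in the controls and 10.17, 7.85 and 9.47 in NT-3N 1 to 3. Its log2 difference of -2.05 ± 0.67 was the furthest from 0 of all 34 members (adjusted p = 0.43, limma), and every NT-3N array was below both controls. Cmpk2 had 10.22 and 10.90 in the controls and 10.08, 8.34 and 9.28 in NT-3N, again with no overlap. Samhd1, which degrades deoxynucleotides and restricts retroviruses, was the member that varied least. Its 5 arrays lay between 12.23 and 12.34, the range over the NT-3N mice was 1.06-fold, and the log2 difference was 0.03 ± 0.08 (adjusted p = 0.92, limma).

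Bst2 (tetherin) holds budding virus at the cell surface, Rtp4 is a chaperone of membrane receptors and Lgals3bp is a secreted glycoprotein. Bst2 had log2 signals of 12.31 and 13.14 in the controls and 12.13, 11.30 and 11.70 in NT-3N 1 to 3. The groups did not overlap, the log2 difference was -1.02 ± 0.31 and the adjusted p was 0.39 by limma. Lgals3bp had 15.04 and 15.51 in the controls and 15.24, 14.16 and 14.53 in NT-3N, with NT-3N 1 between the controls. Rtp4 differed by -0.77 and had a range of 3.06-fold over the NT-3N mice.

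Among the remaining members, Ifi44, a cytoplasmic antiviral protein, had the widest spread in both groups. Its log2 signals were 9.26 and 10.77 in the controls and 9.36, 6.58 and 8.48 in NT-3N 1 to 3. The range was 6.87-fold over the NT-3N mice, the controls differed by 1.51 on the log2 scale, and the difference between the groups was -1.88 ± 0.83 (adjusted p = 0.54, limma). Ifi27l2a, a small membrane protein, had 13.67 and 14.80 in the controls and 13.28, 12.68 and 13.00 in NT-3N. With Bst2 and Samhd1 it was one of 3 members whose controls differed by more than the NT-3N mice, and its groups did not overlap (-1.25 ± 0.34, adjusted p = 0.34, limma). Xaf1, a pro-apoptotic protein, had a log2 difference of -0.86, Ifi35 one of -0.36 and Epsti1 one of -0.32.

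The range over the NT-3N mice was 2-fold or more for 20 of the 34 members, beside 8.69% of all features. Its median was 1.17 on the log2 scale, against 0.33 over all features. The controls differed by 0.08 to 1.51, with a median of 0.46 against a median absolute difference of 0.16 over all features. They differed by 2-fold or more for 4 members: Ifit2, Rsad2, Ifi44 and Ifi27l2a. The share of all features with such a gap was not counted. The range over 3 arrays is expected to exceed a difference between 2, and it did so for 31 members. In a ranking of 16737 genes by their fall from NT-3N 1 to NT-3N 2, made after the values were seen, 12 members stood among the first 50. The first 10 places were held by genes other than members, namely Cela2a, St3gal5, Defa23, Gp2, Cd177, Defa24, Saa3, Amy1, Bcl2l15 and Cpa1. Among these are genes of pancreatic enzymes and of Paneth cell defensins. The log2 differences of the 10, NT-3N 2 minus NT-3N 1, were -4.44 to -2.85, beyond that of the first member, Ifi44, at -2.78. The enzyme genes Cela2a, Amy1 and Cpa1 were highest in Control 1. Cela2a had log2 signals of 14.03 and 5.32 in the controls and 10.23, 5.79 and 6.01 in NT-3N 1 to 3. In the same ranking by the fall from Control 2 to Control 1, Ifi44 was the only member among the first 50. The 10 genes other than members that led the latter were Slc10a2, Krcc1, Ascc1, Terf2ip, Shroom3, Evi5, Clip1, Nsf, Med17 and Tmem238l, with differences of 4.61 to 8.50. No member approached that size. All 10 of these genes were lowest in Control 1. Krcc1, for example, had log2 signals of 6.37 and 13.52 in the controls and 13.72, 13.72 and 13.73 in NT-3N 1 to 3. Whether faulty spots on Control 1 had a part in such gaps was not tested.

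**Figure D3:**
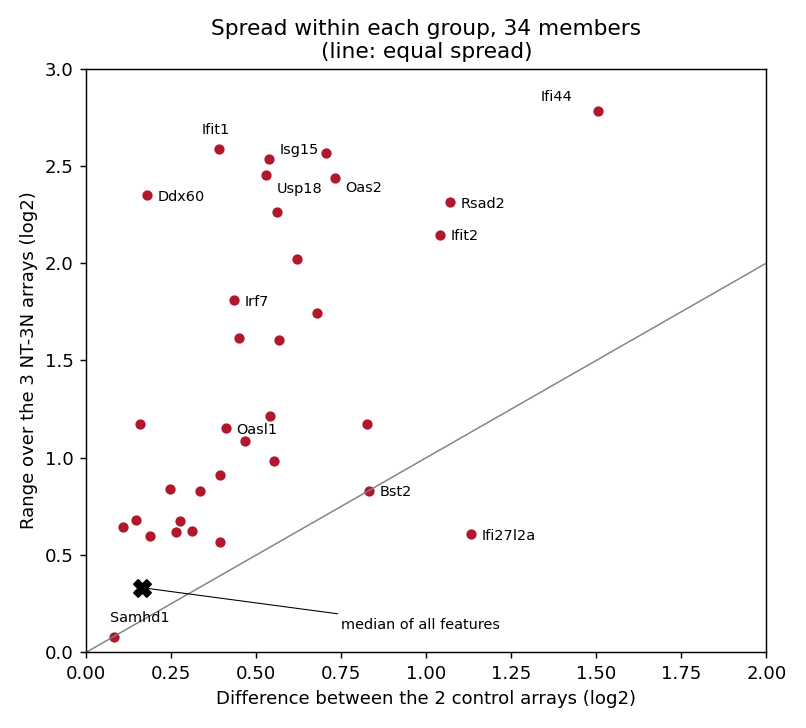
Each point is 1 of the 34 members, with the log2 difference between the 2 control arrays on the horizontal axis and the log2 range over the 3 NT-3N arrays on the vertical axis; the cross is the median of all features. Most points lie above the line of equal spread, Samhd1 lies near the origin, and Ifi44 has the widest spread on both axes.

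There were 17 further probes for 14 members, and 13 of them had the sign of the brightest probe. The exceptions were further probes of Irf9, Parp9 and Samhd1, the last with 2. The further probe of Ifi27l2a was counted with that sign but lay at -0.00044, with log2 signals of 5.16 and 5.84 in the controls and 6.06, 5.35 and 5.09 in NT-3N 1 to 3. Over the mean of its probes, Ifi27l2a differed by -0.62 (adjusted p = 0.60, limma), against -1.25 for its brightest probe. Among the 16 further probes that were well above background on all arrays, 14 were lowest on NT-3N 2.

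The interferons themselves were dim, with log2 signals of the tested type I genes between 2.36 and 6.94. Of 18 type I interferon genes listed, 12 were tested, 9 of these were above background on all arrays, and 0 passed the adjusted test in limma, with Ifna15 below an unadjusted p of 0.05. All 12 were lower in NT-3N on average, with a median log2 difference of -0.22. Log2 signals of Ifna15 were 4.93 and 5.56 in the controls and 4.26, 4.75 and 4.45 in NT-3N 1 to 3. Ifnb1, Ifna4, Ifna7, Ifne and the type II gene Ifng were too dim to be tested. Over the 12 genes the median on each array, relative to the controls, was -0.05, -0.20 and -0.52 in NT-3N 1 to 3, so NT-3N 3 and not NT-3N 2 was lowest. Ifnl3, a type III interferon, differed by -0.21.

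None of 6 interferon receptor chains had an unadjusted p under 0.05. The widest differences were -0.25 for Ifnar1, 0.25 for Ifnar2 and 0.12 for Ifngr1. No receptor was lowest on NT-3N 2, beside 19.2% of all features. Of 16 signalling genes, 0 passed the adjusted test in limma, and at an unadjusted p under 0.05, 3 were higher (Jak1, Irf2 and the phosphatase gene Ptpn2) and 1 was lower. Jak1, Irf2 and Ptpn2 were above both controls on every NT-3N array, by 0.21, 0.34 and 0.33 on average.

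Among 13 genes of nucleic acid sensing, 1 passed the adjusted test. Sting1, the adaptor that relays cytosolic DNA to interferon production, rose by 1.75 ± 0.17 (adjusted p = 0.036, limma). Its log2 signals were 10.09 and 9.88 in the controls and 11.42, 11.87 and 11.93 in NT-3N 1 to 3, with no overlap and no dip in NT-3N 2. Trex1, the exonuclease that removes cytosolic DNA, had 12.24 and 12.36 in the controls and 11.70, 11.14 and 11.44 in NT-3N. All NT-3N arrays were below the controls for Trex1, by -0.88 ± 0.17 (adjusted p = 0.19, limma). Myd88, the adaptor of Toll-like receptors, differed by 0.34 (adjusted p = 0.28, limma).

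A second list of 43 interferon-stimulated genes outside the 37, of which 38 were tested, was mixed. On average 30 were lower and 8 higher, with a median of -0.23. At an unadjusted p under 0.05, 9 were lower and 3 higher, and 1 passed the adjusted test. This was Ifitm1, a membrane protein that blocks viral entry, which rose by 1.77 ± 0.10 (adjusted p = 0.0057, limma). Its log2 signals were 11.03 and 11.09 in the controls and 12.69, 12.86 and 12.93 in NT-3N 1 to 3, so that the NT-3N mice lay close together. The other 2 were Ifi205, at 1.39 (adjusted p = 0.091, limma), and Ifitm3, at 0.77 (adjusted p = 0.13, limma). Apol9b, at the opposite end, had 13.54 and 14.25 in the controls and 13.42, 11.10 and 12.41 in NT-3N, the mouse order of the members. Helz2, at -0.75 (adjusted p = 0.36, limma), and Znfx1, at -0.58 (adjusted p = 0.33, limma), had every NT-3N array below both controls. Of the 38, 27 were lowest on NT-3N 2 (71.1%), against 33 of the 34 members and 19.2% of all features.

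Genes associated with interferon gamma split evenly, with 12 of 24 higher and 12 lower and a median of 0.00 to 2 decimals. None passed the adjusted test in limma; 4 were higher and 3 lower at an unadjusted p under 0.05. Iigp1, an immunity-related GTPase, had log2 signals of 8.41 and 8.82 in the controls and 10.77, 10.12 and 10.07 in NT-3N 1 to 3 (1.71 ± 0.25, adjusted p = 0.093, limma). The guanylate-binding proteins Gbp2, at 1.17, and Gbp5, at 1.64, were likewise above both controls in every NT-3N mouse. Irgm1, at -0.93, B2m, at -0.59, and H2-D1, at -0.42, were below both controls in every NT-3N mouse. Of the 24, 11 were lowest on NT-3N 2 (45.8%), beside 19.2% of all features. Their median range over the NT-3N mice was 0.65 on the log2 scale, against 0.33 over all features.

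Targets of gp130 and Stat3, the pathway of the agonist, were set beside the members. Like the other lists, this one was chosen with earlier results of these data known, so its rise is description and not a test. All 10 were higher in NT-3N, beside 15263 of all 32917 features, and 6 passed the adjusted test, beside 47. Socs3, the feedback inhibitor of gp130, had log2 signals of 10.63 and 10.11 in the controls and 12.88, 13.21 and 13.14 in NT-3N 1 to 3 (2.71 ± 0.18, adjusted p = 0.0087, limma). The median over the list relative to the controls was 1.11, 1.36 and 1.37 in NT-3N 1 to 3. All 3 mice thus had medians above the controls, while the interferon-stimulated members stood at -0.03, -1.49 and -0.74 in the same mice. Whether these are related cannot be tested over 3 mice.

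**Figure D4:**
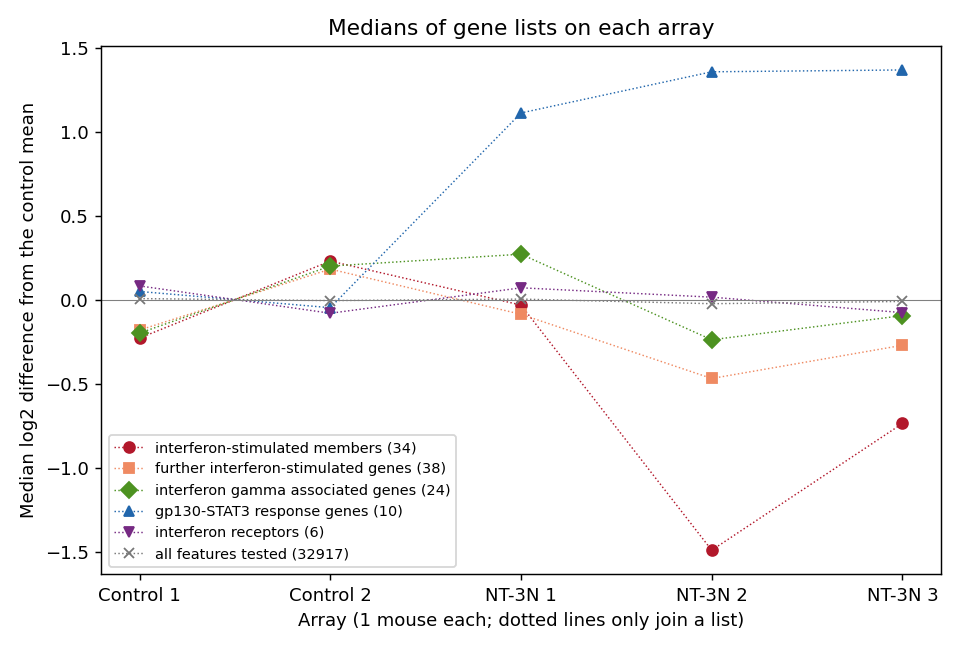
Median log2 difference from the control mean on each array for 5 gene lists and for all features tested; numbers in the legend are genes per list. The gp130-STAT3 list lies above 1 on all 3 NT-3N arrays, whereas the interferon-stimulated members lie at -0.03 on NT-3N 1 and -1.49 on NT-3N 2.

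Markers of other cell types were set beside the mouse order. A summed signal is carried mainly by the brightest genes of a list, and whether other colon cells express them was not tested. The 7 plasmacytoid dendritic cell markers, cells that make much interferon, had summed signals of 173760 and 193650 in the controls and 165480 to 182770 in NT-3N. The 12 markers of colonic epithelium summed to between 982050 and 1175300 on the 5 arrays, and the 12 markers of macrophages and monocytes to between 42868 and 54672, with medians of -0.20 in NT-3N 1 and 0.18 in NT-3N 2. Medians were higher in NT-3N 2 than in NT-3N 1 for plasma cells, at 0.57 against -0.52, and goblet cells, at 0.18 against -0.48. They were lower for T cells, at -0.02 against 0.25. Adipocyte medians swung widely, at 1.32 and -1.32 in the controls and 0.98, 0.22 and -1.83 in NT-3N 1 to 3, so that NT-3N 3 was lowest. B-cell markers stood apart in Control 2, with a summed signal of 1169 against 4513 to 5413 on the other arrays. Ms4a1, 1 of these 7 markers, differed from this sum, being lowest in Control 1. Its log2 signals were 4.95 and 6.53 in the controls and 9.54, 9.13 and 9.51 in NT-3N 1 to 3 (adjusted p = 0.059, limma). It was the only 1 of the 7 with an unadjusted p under 0.05. Pax5 did not stand apart in Control 2 either, at 6.74 and 6.34 in the controls and 6.37, 6.37 and 6.19 in NT-3N 1 to 3. Between the groups, 3 of 5 neutrophil markers were higher at an unadjusted p under 0.05, with medians of 1.12, 1.40 and 0.57 in NT-3N 1 to 3, although only 1 of the 5 was above background on all arrays. Of the 5, 1 was lower on average. The summed neutrophil signal did not rise, at 78034 and 77030 in the controls and 77499, 64090 and 67722 in NT-3N 1 to 3. This sum says little of the dim markers. The median log2 signal of the 5 was 3.54 and 3.27 in the controls and 6.21, 4.88 and 5.15 in NT-3N 1 to 3. All 7 smooth muscle markers were lower on average, 3 of them at an unadjusted p under 0.05, with medians of -0.55, -0.14 and -0.24. No marker of either list passed the adjusted test in limma. The part of these cell types in the differences among mice and between the groups was not tested.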

How the data were processed

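Spot intensity values were deposited as scanner output of Agilent Feature Extraction 11.0.1.1, per the file headers background-subtracted, detrended and not scaled between arrays. The authors also deposited log2 values for 37380 probes, which were used as an alternative. They correlated with the log2 processed signal, taken before quantile normalization, at 0.9999 or more on each array.

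Control spots and outlier spots (69 to 184 of 59305 per array) were left out, intensities were log2-transformed, spots of a probe averaged and arrays quantile-normalized. A probe was kept if well above background on at least 2 of 5 arrays, with values on both control arrays and at least 2 NT-3N arrays. Unversioned accessions named 32994 of 56605 probes through a RefSeq table (GRCm38.p6), and the brightest probe stood for a gene. The array design used another build, so no probe coordinates are given. The files give no read depth; the number of arrays limits the precision.

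NT-3N was compared with Control in limma 3.58.1 under R 4.3.3 (lmFit, eBayes with an intensity trend, two-sided, Benjamini-Hochberg over 32917 features). A local-pooled-error test, named in the study's methods, was an alternative, and the tests were checked on simulated data. The members and the gene lists were chosen with earlier results of these data known. Genes named were the member with the largest difference and that with the highest mean in each role class. Members with an unadjusted p under 0.05 were also named, and others by their role. Of the pathway list genes under that p, only some were named, up to a limit per list. Where few or none passed, genes with the largest differences were named. Markers of cell types were mostly given as lists. Alternatives covered scaling, background (normexp, on the median spot signal in place of the planned mean, chosen after the data were seen), probe filter, probe choice, variance model, array weights, the replicate block and leaving out each array. A signalling gene is not reported here.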

Additional observations from a re-analysis of the deposited data

How the results depend on the processing

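The number of members with an adjusted p under 0.05 was 0 in limma under every alternative run, including each array left out, and 17 by the local-pooled-error test, which takes its variance from signal level and not from the spread of the gene itself. The count lower at an unadjusted p under 0.05 was 9 and became 3 with no filter on dim probes, 5 without the intensity trend, 26 with array quality weights, 2 with the replicate block and 23 by the local-pooled-error test. Beside these, 1538 of all 32917 features became 2035 of 45574, 1551, 2654, 1351 and 620. Leaving out 1 array gave 2 (Control 2) to 27 (NT-3N 1) members, with 5 without NT-3N 3, and 899 to 2669 features. The replicate numbers come from the array titles, which name no pairing between the groups. Correlations of deviations were 0.13 and 0.04 over 2 pairs, too few to decide whether the numbers pair the arrays. The replicate block called 0 members. The count lower by 2-fold or more was 13, and leaving out 1 array gave 8 (NT-3N 2) to 19 (NT-3N 1). With 1 array left out, the 2-fold share over all features was not counted. The median log2 difference of the members stayed negative, from -1.19 to -0.42 with 1 array left out. Over all features the adjusted count was 47, against 343 by the local-pooled-error test, 200 with array weights, 2 without the intensity trend, 2 with dim probes kept, 0 under the block, and 0 to 118 with 1 array left out. The sign turned for 3 members near 0: Samhd1, at -0.010 with normexp, -0.023 with the mean of its probes and -0.0080 to 0.073 with 1 array left out; Irf9, at -0.080 with weights, -0.050 by local-pooled-error and -0.12 to 0.21 with 1 array left out; and Eif2ak2, at -0.25 to 0.044 with 1 array left out. The cause was not tested. The median difference between the controls stayed between -0.48 and -0.45 (Control 1 minus Control 2). With 5 arrays, limma passed no member at adjusted p under 0.05, although differences reached -2.05 on the log2 scale.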
